A study of Mus musculus with 9 samples.

Results

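R-loops are three-strand structures in which a transcript pairs with its DNA template and leaves the other DNA strand single. Cells remove them by degrading the RNA (RNase H1 and the RNase H2 complex), by unwinding the hybrid (RNA/DNA helicases such as DHX9 and AQR), by relieving the negative supercoiling that favours them (topoisomerases TOP1 and TOP3B), or by terminating transcription behind the polymerase with the 5′ to 3′ exonuclease XRN2. RNase H2 also cuts single ribonucleotides out of DNA, and mutations in its 3 subunit genes in people cause the inflammatory brain disease Aicardi-Goutières syndrome. The 9 genes described here are Dhx9, Aqr, Rnaseh1, Rnaseh2a, Rnaseh2b, Rnaseh2c, Top1, Top3b and Xrn2, taken by name from the 24318 genes of the RNA-seq tables. All 9 were found in both tables and all 9 passed the filter on low values.

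Ribosomal RNA-depleted RNA was sequenced from cultures of N2a, a mouse neuroblastoma line, that had been transfected with scramble siRNA, with siRNA against EXOSC3 (siEXOSC3) or with siRNA against DDX1 (siDDX1). EXOSC3 is a cap subunit of the RNA exosome, the complex that processes and degrades RNA from the 3′ end, and DDX1 is a putative RNA helicase linked to R-loops. The labels call the cells of all 3 groups untreated and give the genotype as WT for scramble and as a knockdown for the others, and all cells went through the same lipid transfection. Each group had 3 libraries from separate plates of one cell line, 9 libraries in all, and both knockdowns were compared with the same 3 scramble libraries. The question asked here is whether the transcripts of the R-loop resolving enzymes themselves changed when the exosome or DDX1 was depleted. Values are FPKM, fragments per unit of transcript length and of fragments mapped, so that levels can be compared between genes of different length. A gene is said to rise or fall where limma on log2(FPKM + 1) gave an adjusted p under 0.05 over all genes of the table.

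The depleted transcripts followed the labels. Exosc3 was at 44.1 ± 1.56 FPKM (SD, n = 3) in scramble and at 6.84, 7.68 and 6.01 FPKM in siEXOSC3 replicates 1, 2 and 3. Ddx1 was at 125 ± 5.40 FPKM (SD, n = 3) in scramble and at 28.0, 28.7 and 34.8 FPKM in siDDX1 replicates 1, 2 and 3. The replicate with the most target transcript left was thus siEXOSC3 replicate 2 and siDDX1 replicate 3. Of 7 neuronal markers, 5 had a mean of at least 1 FPKM and the neurofilament genes Nefl and Nefm were near 0. The summed FPKM of the 7 ran from 205 to 211 in scramble and from 440 to 493 in siEXOSC3, and from 239 to 265 in siDDX1 against 203 to 209 in the scramble columns of that table. The higher sum in siDDX1 came from Gap43 (76.1 to 83.5 FPKM in scramble, 108 to 118 in siDDX1) and Mapt (13.2 to 17.8 against 21.5 to 29.4), while the ranges of Tubb3, Map2 and Stmn2 overlapped those of scramble. Of 10 markers of other cell types, 2 had a mean of at least 1 FPKM, Mbp and Pecam1. The 10 summed to 6.52 to 7.85 FPKM in scramble and to 9.12 to 12.3 FPKM in siEXOSC3, with Pecam1 at 3.80 to 4.49 and 6.11 to 9.08 FPKM, and in siDDX1 to 7.36 to 8.43 FPKM against 6.47 to 7.76. The part of either marker list in the results was not tested.

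Before the comparisons, the levels in scramble show what these cells hold. Dhx9 was the most abundant of the 9 transcripts at 95.7 ± 3.33 FPKM (SD, n = 3), above 91.7% of the genes tested. Xrn2 (68.9 ± 3.72 FPKM), Top1 (63.3 ± 0.693 FPKM) and Aqr (32.2 ± 1.80 FPKM) came next. The RNase H genes were lower, with Rnaseh2b at 15.6 ± 0.838, Rnaseh1 at 14.6 ± 1.86, Rnaseh2a at 8.72 ± 0.596 and Rnaseh2c at 4.48 ± 0.715 FPKM, and Top3b lay among them at 13.1 ± 0.467 FPKM. The median tested gene was at 14.1 FPKM. The 9 levels spanned 21.3-fold, and in that order the libraries of neighbouring genes overlapped only for Rnaseh2b and Rnaseh1 and for Rnaseh1 and Top3b. The 3 RNase H2 subunits, which form a complex with 1 copy of each, therefore differed in transcript level, with the catalytic subunit Rnaseh2a between the accessory subunits Rnaseh2b and Rnaseh2c.

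**Figure D1:**
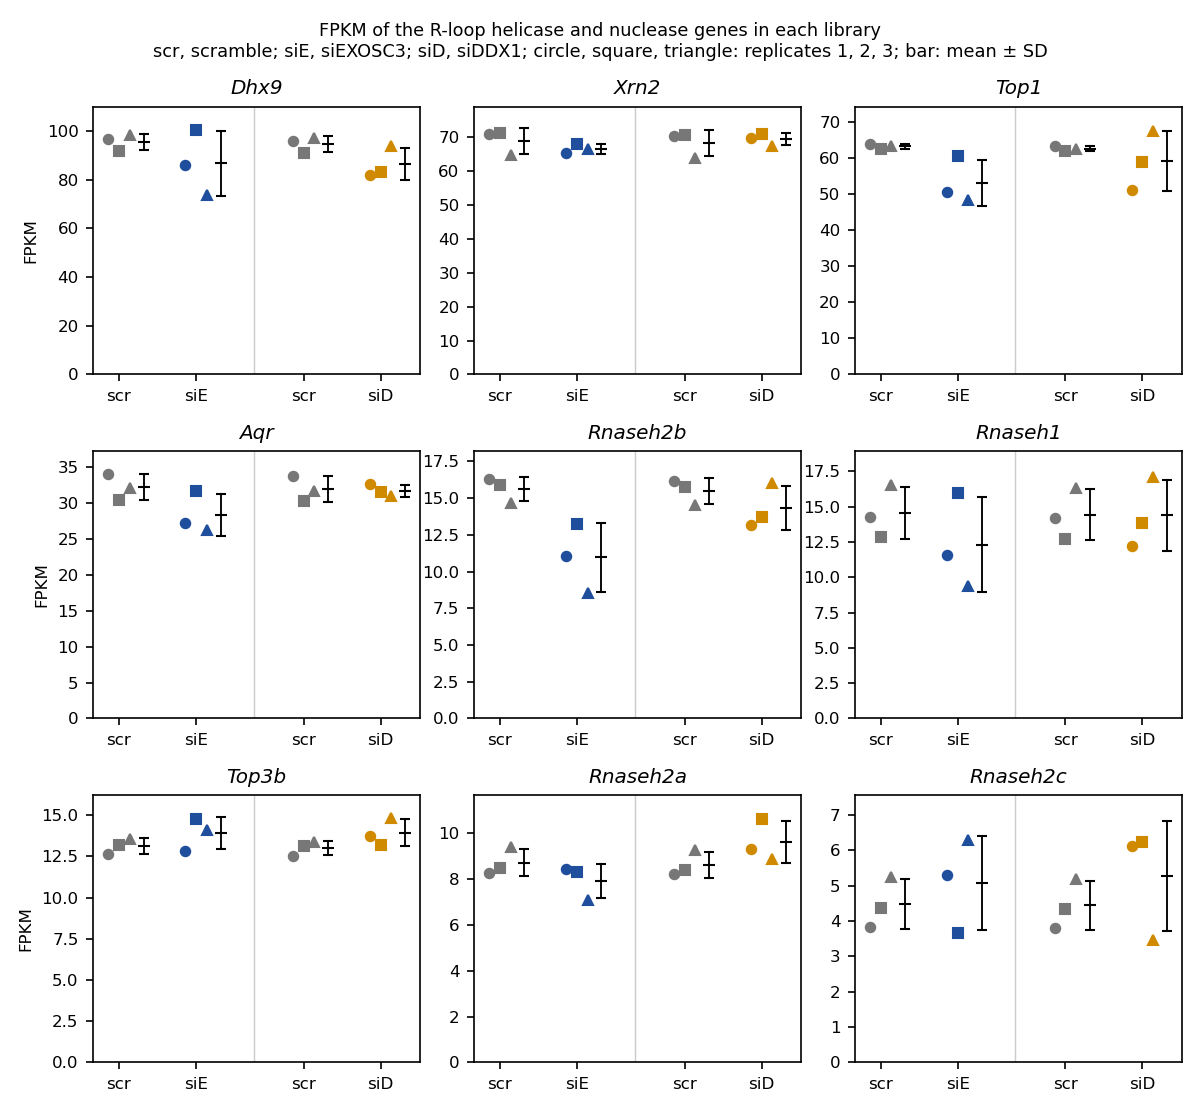
FPKM of the 9 genes in every library, with a separate axis from 0 for each gene; grey, scramble; blue, siEXOSC3; amber, siDDX1; circles, squares and triangles, replicates 1, 2 and 3; black, mean ± SD (n = 3). The 2 knockdowns come from separately scaled tables, so scramble is drawn beside each, and Rnaseh2b and Top1 in siEXOSC3 are the cases in which no knockdown point overlaps its scramble points.

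In siEXOSC3, 1 of the 9 genes passed the test, Rnaseh2b, which fell, and no member rose. That share, 11.1%, stands beside 32.4% of all 11242 genes tested, of which 16.7% were higher and 15.7% lower. In siDDX1, 0 of the 9 genes passed the limma test and 0 had an unadjusted p under 0.05. Over all 11104 genes tested, 10.6% passed the test (5.61% higher and 5.03% lower) and 30.1% had an unadjusted p under 0.05. The median log2 fold change of the 9 genes was -0.15 in siEXOSC3, with 7 of 9 below 0, and -0.0079 in siDDX1, with 5 of 9 below 0. Over all genes tested the medians were -0.0145 and -0.0006, and 51.95% and 50.1% of genes lay below 0.

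The RNase H2 complex held the member that passed the test. RNASEH2B is an accessory subunit that carries the contact to PCNA, the sliding clamp of replication. Rnaseh2b was at 16.3, 15.9 and 14.7 FPKM in scramble replicates 1, 2 and 3 and at 11.0, 13.3 and 8.56 FPKM in siEXOSC3 replicates 1, 2 and 3. All 3 siEXOSC3 libraries lay below all 3 scramble libraries, and replicate 3 was the lowest. The level was 70.1% ± 15.1 (SD, n = 3) of scramble, a log2 fold change of -0.49 with a standard error of 0.134 and a 95% interval from -0.80 to -0.19 (limma adjusted p = 0.0250, exact permutation p = 0.1, the smallest that 3 against 3 allows). The call was lost in 4 of the 6 fits that left out 1 library, those without siEXOSC3 replicate 1 and without scramble replicates 1, 2 and 3, where the adjusted p reached 0.0891, and with no filter on low FPKM, where it was 0.0626. The log2 fold change ran from -0.63 to -0.34 over the 6 fits. In bulk RNA, a lower level in every cell and a loss in some of the cells cannot be told apart.

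In siDDX1 Rnaseh2b was at 13.2, 13.7 and 16.0 FPKM in replicates 1, 2 and 3, against 16.2, 15.8 and 14.5 FPKM in the scramble columns of that table. Replicate 3 lay within the scramble range and the other two below it. The log2 fold change was -0.11 with a 95% interval from -0.31 to 0.09 (limma adjusted p = 0.429). The difference between the knockdowns was not tested, since the tables were scaled separately. Rnaseh2b (chr14:62911426-62991829, plus strand, NCBIM37) shares 66 bp of exon sequence with Dleu7 on the opposite strand, which was listed at 0 in all libraries.

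Rnaseh2a, the catalytic subunit, was at 8.28, 8.48 and 9.40 FPKM in scramble and at 8.43, 8.30 and 7.08 FPKM in siEXOSC3 replicates 1, 2 and 3. The groups overlapped, and the log2 fold change was -0.12 (95% interval -0.33 to 0.08, limma adjusted p = 0.318). In siDDX1 Rnaseh2a was at 9.32, 10.6 and 8.89 FPKM, against 8.22, 8.41 and 9.29 FPKM in scramble, and the estimate had the other sign, 0.14 (95% interval -0.06 to 0.34, adjusted p = 0.326). The annotation of NCBIM37 places Rnaseh2a (chr8:87480509-87493666, minus strand) in exonic overlap over 177 bp with Prdx2 on the opposite strand. The libraries do not keep strand, and Prdx2, a peroxiredoxin, was far more abundant, at 367 ± 7.08 FPKM in scramble and 424 ± 14.3 FPKM in siEXOSC3 (SD, n = 3, log2 fold change 0.21, adjusted p = 0.0390). Reads of the 2 genes in that stretch cannot be told apart, so the level of Rnaseh2a, its place among the subunits and the ratios to it are uncertain to that extent.

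Rnaseh2c, the smallest and least abundant of the 9 transcripts, was at 3.84, 4.36 and 5.25 FPKM in scramble, at 5.30, 3.66 and 6.29 FPKM in siEXOSC3 and at 6.11, 6.23 and 3.46 FPKM in siDDX1 replicates 1, 2 and 3. In both knockdowns 2 libraries lay above every scramble library and 1 below, so the spread exceeded the difference. The log2 fold changes were 0.13 (95% interval -0.25 to 0.52, limma adjusted p = 0.563) in siEXOSC3 and 0.18 (95% interval -0.26 to 0.61, adjusted p = 0.564) in siDDX1. Without siDDX1 replicate 3 the latter was 0.41 (adjusted p = 0.0218, and 0.0218 to 0.895 over its alternatives). Rnaseh2c (chr19:5601873-5603439, plus strand, NCBIM37) shares 423 bp of its 1455 bp of exon sequence with Kat5, an acetyltransferase gene on the opposite strand, at 14.3 ± 0.782 FPKM in scramble and 12.6 ± 0.657 FPKM in siEXOSC3 (adjusted p = 0.110). Reads of the 2 genes in that stretch cannot be told apart, and the value of Rnaseh2c is uncertain to that extent.

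Since the 3 subunits act together, their ratios within a library were also compared, a choice made after the values had been seen. Rnaseh2b per Rnaseh2a was 1.97, 1.88 and 1.56 in scramble replicates 1, 2 and 3, and 1.31, 1.60 and 1.21 in siEXOSC3. The groups overlapped through siEXOSC3 replicate 2, and an exact permutation test gave p = 0.2 (two-sided). The 8 ratios computed over both knockdowns had Rnaseh2a or Rnaseh2c below the line. They included Rnaseh1, which is not an RNase H2 subunit, per Rnaseh2a. None of the 8 separated the groups, and their p-values were not adjusted.

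Rnaseh1 encodes the enzyme that cuts longer RNA/DNA hybrids in the nucleus and in mitochondria. It was at 14.3, 12.8 and 16.5 FPKM in scramble and at 11.6, 16.0 and 9.39 FPKM in siEXOSC3 replicates 1, 2 and 3. Replicates 1 and 3 lay below the scramble libraries and replicate 2 within them. The log2 fold change was -0.25 with a 95% interval from -0.63 to 0.14 (limma adjusted p = 0.284). In siDDX1 it was at 12.2, 13.9 and 17.1 FPKM, spread on both sides of scramble, and the estimate was -0.0079 (95% interval -0.30 to 0.29, adjusted p = 0.973).

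Of the helicases, DHX9 unwinds RNA/DNA hybrids and structured RNA, and AQR is a spliceosome helicase whose loss is known to raise R-loops. Dhx9 was at 96.8, 91.9 and 98.3 FPKM in scramble, and at 85.9, 100 and 73.9 FPKM in siEXOSC3 replicates 1, 2 and 3. Replicate 2 was above every scramble library and the other two below. The log2 fold change was -0.15 (95% interval -0.39 to 0.09, limma adjusted p = 0.294). In siDDX1 Dhx9 was at 82.0, 83.4 and 93.9 FPKM, against 96.1, 91.2 and 97.1 FPKM in scramble, and replicate 3 alone reached the scramble range. The log2 fold change was -0.13 (95% interval -0.29 to 0.02, adjusted p = 0.228), and without siDDX1 replicate 3 it was -0.19 (adjusted p = 0.0292, and 0.0292 to 0.470 over its alternatives).

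Aqr was at 34.1, 30.5 and 32.1 FPKM in scramble and at 27.3, 31.7 and 26.2 FPKM in siEXOSC3 replicates 1, 2 and 3. Again replicates 1 and 3 lay below scramble and replicate 2 within it. The log2 fold change was -0.18 (95% interval -0.37 to 0.02, limma adjusted p = 0.138). In siDDX1 the 3 libraries were at 32.7, 31.5 and 31.0 FPKM, all within the scramble range, and the log2 fold change was -0.0080 with an interval from -0.15 to 0.14 (adjusted p = 0.947).

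Of the topoisomerases, TOP1 nicks DNA to release supercoils during transcription, and TOP3B acts on both DNA and RNA. Top1 was tight in scramble, at 64.0, 62.6 and 63.3 FPKM, and was at 50.6, 60.6 and 48.4 FPKM in siEXOSC3 replicates 1, 2 and 3. All 3 siEXOSC3 libraries lay below scramble, with replicate 2 nearest to it. The level was 84.0% ± 10.3 (SD, n = 3) of scramble, a log2 fold change of -0.25 with a standard error of 0.0872 and a 95% interval from -0.45 to -0.05, which missed the threshold (limma adjusted p = 0.0547, unadjusted p = 0.0184). The adjusted p ran from 0.00319 to 0.167 over its alternatives and passed 0.05 in 2 of 14, quantile normalization and the fit without siEXOSC3 replicate 2. In siDDX1 Top1 was at 51.1, 58.9 and 67.7 FPKM, on both sides of the scramble libraries (log2 fold change -0.09, 95% interval -0.31 to 0.13, adjusted p = 0.558). Gm17299 overlaps Top1 on the opposite strand, with no shared exon sequence. Rnaseh2b and Top1 were the 2 of 9 genes whose groups did not overlap in siEXOSC3, where 49.7% of all genes tested did not. In siDDX1 it was 0 of 9, where 34.7% of all genes tested did not overlap.

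Top3b and Xrn2 showed the narrowest intervals of the 9 genes in siEXOSC3. Top3b was at 12.6, 13.2 and 13.5 FPKM in scramble, 12.8, 14.8 and 14.1 FPKM in siEXOSC3 and 13.8, 13.2 and 14.8 FPKM in siDDX1 replicates 1, 2 and 3. The groups overlapped in both, with log2 fold changes of 0.08 (95% interval -0.10 to 0.25, limma adjusted p = 0.453) and 0.09 (95% interval -0.07 to 0.25, adjusted p = 0.407). Top3b shares 108 bp of exon sequence with Vpreb1 on the opposite strand, which was at most 0.261 FPKM in any library. Xrn2 was at 70.9, 71.2 and 64.6 FPKM in scramble, 65.2, 68.1 and 66.5 FPKM in siEXOSC3 and 69.8, 71.0 and 67.5 FPKM in siDDX1. Its log2 fold changes were -0.05 (95% interval -0.19 to 0.10, adjusted p = 0.593) and 0.02 (95% interval -0.12 to 0.17, adjusted p = 0.827). The groups overlapped for Xrn2 too.

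**Figure D2:**
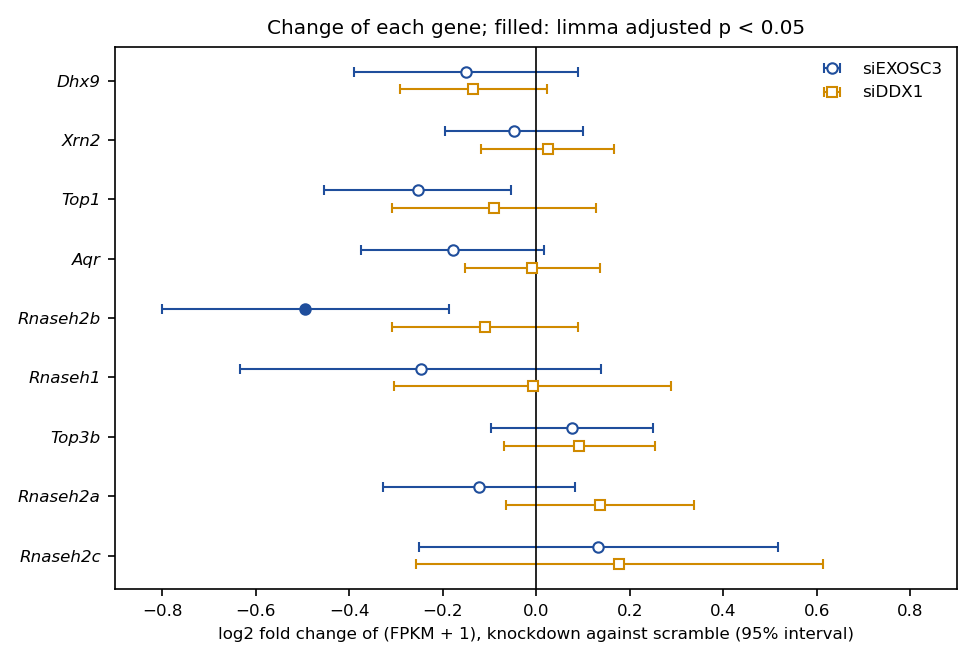
Log2 fold change of (FPKM + 1) against scramble for the 9 genes, in order of their scramble level, with 95% intervals from limma; circles, siEXOSC3; squares, siDDX1; filled, adjusted p under 0.05. Only Rnaseh2b in siEXOSC3 is filled, and the siDDX1 intervals all include 0 and run at most from -0.31 to 0.61.

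The siEXOSC3 libraries were not alike in these genes. Replicate 2 was the highest of the 3 siEXOSC3 libraries for 7 of the 9 genes, where it was the highest for 40.3% of all genes tested. The median deviation of the 9 genes from the scramble mean, on the log2(FPKM + 1) scale, was -0.15 in replicate 1, -0.02 in replicate 2 and -0.29 in replicate 3, and 8, 6 and 7 of the 9 lay below 0. Between 51.0 and 52.1% of all genes tested lay below 0 in these libraries. With replicate 2 left out, 5 of the 9 genes fell, Aqr, Dhx9, Rnaseh1, Rnaseh2b and Top1, with adjusted p from 0.00231 to 0.0294 and log2 fold changes of -0.26, -0.26, -0.44, -0.63 and -0.35. In that fit 4887 of 11238 genes were called, 2508 lower and 2379 higher. Over the other 13 alternatives Aqr, Dhx9 and Rnaseh1 passed the threshold in none, with adjusted p up to 0.364, 0.715 and 0.676. Replicate 2 also kept the most Exosc3 transcript, 17.4% of scramble against 15.5 and 13.6% in replicates 1 and 3. The part of this in the result was not tested.

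In siDDX1 the median deviations of the 9 genes were 0.03, -0.02 and 0.04 in replicates 1, 2 and 3. With siDDX1 replicate 3 left out, 2 of the 9 genes passed the threshold, Dhx9 lower and Rnaseh2c higher, and 3524 of 11108 genes were called. Replicate 3 was the highest of the siDDX1 libraries for 5 of the 9 genes, and for 40.3% of all genes tested.

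**Figure D3:**
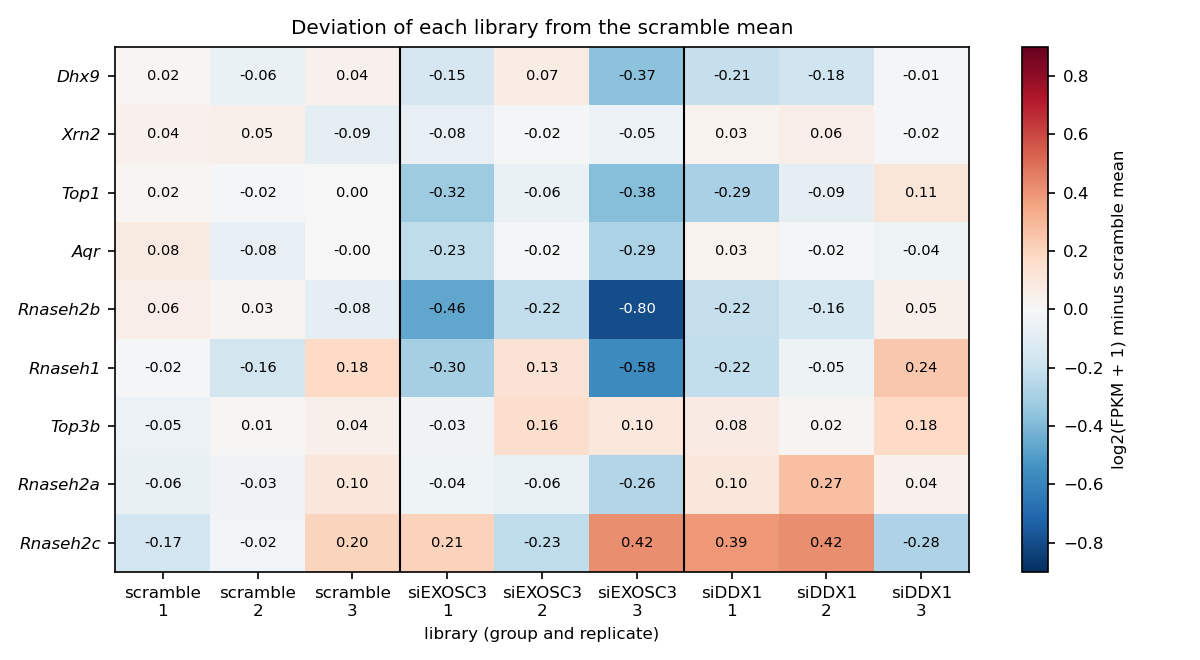
Deviation of each library from the mean of the 3 scramble libraries of its table, in log2(FPKM + 1), for the 9 genes (rows) and 9 libraries (columns); blue, lower; red, higher. In siEXOSC3 replicates 1 and 3 the rows of Dhx9, Top1, Aqr, Rnaseh2b and Rnaseh1 are blue, down to -0.80 for Rnaseh2b, and in replicate 2 the same rows run from -0.22 to 0.13.

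Over the 9 libraries, which share cell line and scramble control, the deviations of Rnaseh2b and Top1 gave a Pearson r of 0.89 and those of Rnaseh1 and Top1 0.88, while Dhx9 and Rnaseh2c gave -0.80. The genes most like Rnaseh2b in this profile, among 11053 genes tested in both tables, were Asb8, a SOCS-box protein gene (r = 0.996), and Kpna2, an importin alpha (r = 0.991), and 553 genes reached r of 0.9. For Top1 they were Naa15, an N-terminal acetyltransferase subunit (r = 0.981), and Rasa1, a Ras GTPase activator (r = 0.979), with 182 genes at r of 0.9 or more. For Rnaseh1 they were Mmachc, a cobalamin enzyme (r = 0.978), and Exo1, a DNA exonuclease (r = 0.967), with 84 genes at r of 0.9 or more. These are descriptions of the 9 libraries.

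Promoter sequences were available for 7 of the 9 genes from RefSeq (GRCm38.p6), and not for Rnaseh1 and Rnaseh2b. The 250 bases before the annotated start are printed for Aqr, Dhx9 and Top1. In siEXOSC3 replicates 1 and 3 these genes lay below every scramble library. None of them passed the test with all libraries kept. Each sequence reads 5′ to 3′ on the strand of the gene, and capitals mark the motifs searched for on both strands, namely the CCAAT box, the TATA box (letters TATAA), the E-box (letters CACGTG), an ETS type site (letters CTTCCGG) and the GC box (letters GGGCGG). No motif in the list overlaps another by its letters in these 3 windows.
Aqr, chr2:114175340-114175589, minus strand: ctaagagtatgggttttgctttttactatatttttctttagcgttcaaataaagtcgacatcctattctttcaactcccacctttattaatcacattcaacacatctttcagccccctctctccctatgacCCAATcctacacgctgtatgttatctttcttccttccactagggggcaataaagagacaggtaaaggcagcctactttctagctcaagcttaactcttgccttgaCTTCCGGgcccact
Dhx9, chr1:153487661-153487910, minus strand: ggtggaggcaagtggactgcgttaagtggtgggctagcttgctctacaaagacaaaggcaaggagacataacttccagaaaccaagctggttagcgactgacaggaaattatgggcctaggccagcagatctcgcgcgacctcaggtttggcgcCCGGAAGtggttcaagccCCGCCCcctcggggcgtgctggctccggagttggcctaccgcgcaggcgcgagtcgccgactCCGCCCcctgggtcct
Top1, chr2:160645647-160645896, plus strand: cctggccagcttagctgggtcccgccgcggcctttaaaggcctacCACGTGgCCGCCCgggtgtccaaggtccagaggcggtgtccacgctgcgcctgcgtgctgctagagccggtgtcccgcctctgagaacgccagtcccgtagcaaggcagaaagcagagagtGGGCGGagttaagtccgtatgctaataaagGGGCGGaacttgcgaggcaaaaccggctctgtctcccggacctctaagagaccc
The Top1 window was rich in CpG, with 20 of them and 63.6% GC, and so was that of Dhx9, with 18 and 62.0%. That of Aqr held 4 CpG and 42.0% GC. The median window of the promoters of genes tested held 16 CpG and 60.0% GC, and that of the 7 genes 17 CpG. GGGCGG was found in 3 of the 7 windows, where 58.9% of promoters of tested genes and 32.7% of all 32851 promoters hold it. CCAAT was in 3 of 7 (35.7% of tested and 33.8% of all), CTTCCGG in 2 of 7 (14.3% and 6.91%), CACGTG in 1 of 7 (8.38% and 6.02%) and TATAA in 0 of 7 (11.7% and 22.8%). A match describes the letters and not a site in use.

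The other genes of R-loop biology, 56 in 4 lists, were read from the same fits. In siEXOSC3, 19 of the 56 fell, 1 rose and 36 did not pass the test, so that 35.7% were called beside 32.4% of all genes tested. By direction, 33.9% fell beside 15.7% of all genes and 1.79% rose beside 16.7%. Their median log2 fold change was -0.21, where the median of all genes was -0.0145. Of the 56, 50 (89.3%) were below 0, beside 51.95% of all genes tested. In siDDX1, 5 fell, 4 rose and 47 did not pass, 16.1% beside 10.6% (8.93% fell beside 5.03% and 7.14% rose beside 5.61%), with a median of -0.07. Both counts moved with single libraries. The siEXOSC3 count ran from 5 without scramble replicate 1 to 37 without siEXOSC3 replicate 2, and the siDDX1 count from 0 without scramble replicate 1 or 3 to 24 without siDDX1 replicate 3.

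Of the 15 other R-loop helicases, 6 (40.0%) fell in siEXOSC3, beside 15.7% of all genes tested, and none rose, with 8 (53.3%) at an unadjusted p under 0.05, beside 45.4%. Ddx41, a DEAD-box helicase, went from 25.4 ± 0.191 to 18.1 ± 0.230 FPKM (SD, n = 3, log2 fold change -0.47, limma adjusted p = 0.00178). Fancm, a branch-migrating translocase of the Fanconi pathway, went from 13.1 ± 0.401 to 9.38 ± 1.95 FPKM (-0.46, adjusted p = 0.0277). Ddx41 kept its call in all 6 fits that left out 1 library, while that of Fancm was lost without siEXOSC3 replicate 1 and without scramble replicates 1, 2 or 3 (adjusted p up to 0.0907) and with no filter on low FPKM (0.0674). In siDDX1, 0 of the 15 passed the limma test, beside 10.6% of all genes tested, and 3 (20.0%) had an unadjusted p under 0.05, beside 30.1%.

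THO/TREX and RNA packaging factors coat nascent RNA and keep it from pairing with DNA. Of these 11 genes, 4 fell in siEXOSC3 and none rose, 36.4% beside the 15.7% of all genes tested that fell. Thoc1, a THO core subunit, went from 19.0 ± 0.663 to 12.1 ± 2.54 FPKM (SD, n = 3, log2 fold change -0.63, limma adjusted p = 0.00969). The export adaptor Alyref went from 159 ± 9.14 to 114 ± 16.1 FPKM (-0.48, adjusted p = 0.0114), and Poldip3 from 86.2 ± 3.58 to 73.0 ± 3.04 FPKM (-0.24, adjusted p = 0.0249). With 1 library left out, Thoc1 was called in 6 of 6 fits, Alyref in 5 (not without scramble replicate 1) and Poldip3 in 2 (not without siEXOSC3 replicate 1 or any one scramble library, adjusted p up to 0.116). In siDDX1, 1 of the 11 passed (9.09% beside the 5.61% of all genes that rose), Thoc6, which rose from 10.9 ± 0.584 to 14.4 ± 0.314 FPKM (0.37, adjusted p = 0.0159). Its call was lost without siDDX1 replicates 1 or 2 and without scramble replicates 1 or 3 (adjusted p up to 0.0821).

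Of 16 partners and paralogues of the 9 enzymes, 6 fell and 1 rose in siEXOSC3, 37.5% and 6.25% beside 15.7% and 16.7% of all genes tested. Top3a, the paralogue of Top3b, went from 12.9 ± 0.438 to 9.15 ± 0.285 FPKM (SD, n = 3, log2 fold change -0.45, limma adjusted p = 0.00325), and Tdrd3, the scaffold that binds TOP3B, from 13.0 ± 0.526 to 10.1 ± 0.677 FPKM (-0.34, adjusted p = 0.0123). Top1mt, the mitochondrial paralogue of Top1, rose from 14.9 ± 0.247 to 18.2 ± 0.920 FPKM (0.27, adjusted p = 0.0178). The call of Top1mt was lost without any one scramble library (adjusted p up to 0.0650) and with the GC and length trend removed (0.19, adjusted p = 0.0600), and that of Tdrd3 without scramble replicates 1 or 3 (up to 0.0615), while Top3a kept its call in all 6 fits. In siDDX1, 3 of the 16 rose and 2 fell, 18.8% and 12.5% beside 5.61% and 5.03%. Top1mt rose from 14.7 ± 0.250 to 20.4 ± 1.42 FPKM (0.45, adjusted p = 0.0102), and Ppie, a cyclophilin of the AQR complex, from 21.6 ± 0.172 to 26.5 ± 0.665 FPKM (0.29, adjusted p = 0.0202). Pcna, the clamp that RNase H2 binds, fell from 178 ± 2.74 to 136 ± 4.47 FPKM (-0.39, adjusted p = 0.00847). Top1mt and Pcna lost their siDDX1 calls without scramble replicates 1 or 3 (adjusted p up to 0.0588 and 0.0591), and Ppie was called in 1 of 6 such fits, that without siDDX1 replicate 3 (up to 0.0991).

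Of 14 repair factors and nucleases that act on R-loops, 3 fell and none rose in siEXOSC3, and 3 fell and none rose in siDDX1. That share of falls, 21.4% in each, stands beside 15.7% of all genes tested in siEXOSC3 and 5.03% in siDDX1. The values of Atm, Fen1 and Brca1, which were called in both, are given side by side, and both comparisons use the same scramble libraries. Atm, the kinase of the double-strand break response, went from 13.6 ± 0.393 to 8.83 ± 0.859 FPKM in siEXOSC3 (SD, n = 3, log2 fold change -0.58, limma adjusted p = 0.00291), and in siDDX1 it went from 13.5 ± 0.414 to 10.2 ± 0.440 FPKM (-0.38, adjusted p = 0.0149). Fen1, the flap nuclease that works after RNase H2 in ribonucleotide removal, had log2 fold changes of -0.56 (adjusted p = 0.00806) and -0.30 (adjusted p = 0.0172). Brca1 had -0.32 (adjusted p = 0.0139) and -0.31 (adjusted p = 0.0211). In siEXOSC3 Atm and Fen1 were called in 6 of 6 fits with 1 library left out and Brca1 in 3 (not without siEXOSC3 replicate 1 or scramble replicates 1 or 2, adjusted p up to 0.0609). In siDDX1 all 3 calls were lost without any one scramble library, that of Fen1 also without siDDX1 replicate 2 and that of Brca1 without siDDX1 replicates 1 or 2, with adjusted p up to 0.0793 for Atm, 0.0934 for Fen1 and 0.102 for Brca1.

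**Figure D4:**
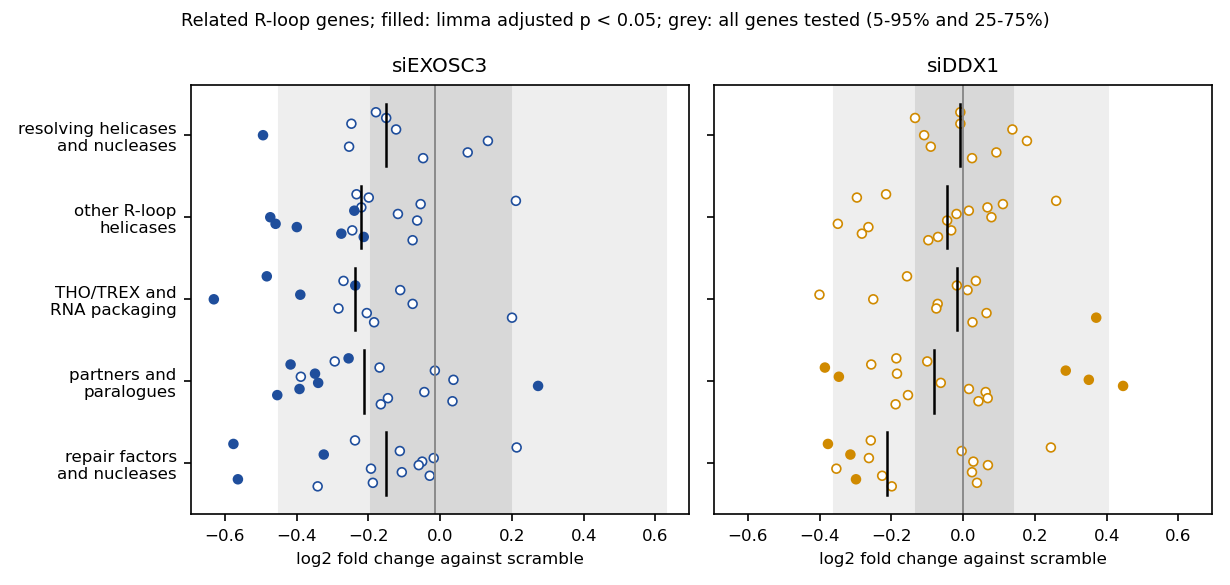
Log2 fold change against scramble of the 9 resolving enzymes (top) and of 4 lists of related genes, one point per gene, in siEXOSC3 (left) and siDDX1 (right); filled, limma adjusted p under 0.05; black bar, median of the list; dark and light grey, the middle 50% and 90% of all genes tested, with their median as a line. The 5 medians in siEXOSC3 lie between -0.24 and -0.15, and those in siDDX1 between -0.21 and -0.0079.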

How the data were processed

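RNA-seq after ribosomal RNA depletion, without strand, was made from 9 libraries of N2a cells of the 3 groups. The authors aligned reads to mm9 with TopHat2 2.1.0, sorted them with SAMtools, and deposited FPKM values per gene from Cuffdiff 2.2.1 in 2 tables, scaled separately. Each table sets 1 knockdown beside the 3 scramble libraries. Which gene annotation was used is not given in the sources used here. FPKM hold no counts, so the depth reached in each library is unknown (the study's methods give only a target) and no count model or counting interval was used.

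Within each table log2(FPKM + 1) was tested, for genes averaging 1 FPKM or more over the 6 libraries, by limma 3.58.1 in R 4.3.3 (lmFit, eBayes with trend, two-sided, no covariate, Benjamini-Hochberg over all genes tested, threshold 0.05), and 95% intervals came from the same fit. The script was tested on simulated data. Fold changes on this scale understate changes of low genes. P-values measure the spread between plates of one line.

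Members and lists were chosen with earlier results of these data known. Named were all 9 members, Exosc3 and Ddx1, up to 3 called genes per related list and knockdown with the smallest adjusted p and groups that do not overlap, 2 genes most like each of 3 members, and genes in overlap with a member. A gene that this rule names is not reported here. Positions are from GENCODE vM1 (NCBIM37, the sequence of mm9), promoters from RefSeq. Alternatives were a pseudocount of 0.1, no filter, a minimum mean of 5 FPKM, centring on the median, quantile normalization, no trend, a replicate block, removal of a GC and length trend, an adjusted p under 0.01 and leaving out each library.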

Additional observations from a re-analysis of the deposited data

How the results depend on the processing

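The calls rest on few libraries. Leaving out 1 library at a time, the number of genes called ran from 1610 to 4887 of all genes, from 0 to 5 of the 9 enzymes and from 5 to 37 of the 56 related genes in siEXOSC3, and from 158 to 3524, 0 to 2 and 0 to 24 in siDDX1. Where a knockdown or scramble group was left with 2 libraries, the spread came from the pooled fit. At an adjusted p under 0.01 the counts were 1349, 0 and 5 in siEXOSC3, and 183 of all genes and 1 related gene in siDDX1. With no filter on low FPKM, 0 of the 9 enzymes were called in siEXOSC3, beside 3132 of 17015 genes (18.4%). In siDDX1 that setting called 0 of the 9, beside 717 of 16981 genes (4.22%). With quantile normalization 2 of the 9 (22.2%) were called in siEXOSC3, beside 3560 of 11242 genes (31.7%). The share of higher among siEXOSC3 calls was 51.5%. It was 45.1% with the GC and length trend removed, 45.6% at a mean FPKM of at least 5, 47.7% with quantile normalization, 57.1% with centring and 64.4% at an adjusted p under 0.01, so the majority direction depends on the setting.

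The labels do not say that replicate numbers pair the libraries. Same-numbered libraries gave correlations of deviations of 0.035, -0.31 and -0.126 for numbers 1, 2 and 3 in siEXOSC3 and of -0.012, 0.379 and 0.372 in siDDX1, where numbers 2 and 3 each correlated best with their own and number 1 did not, so pairing was not established in either table. With the replicate number as a block, 11 of the 56 related genes (19.6%) were called in siEXOSC3, beside 2449 of 11242 genes (21.8%). All 11 were lower, beside 1059 lower among all genes tested. In siDDX1 that setting called 14 of the 56, a larger share than the 1893 of 11104 genes (17.05%). The calls for the 9 enzymes did not change with the block. Fancm (adjusted p = 0.0523), Poldip3 (0.0671) and Top1mt (0.0586) in siEXOSC3 lost their calls.

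Estimates near 0 changed sign under some settings. Rnaseh2c in siEXOSC3 ran from -0.0094 (without siEXOSC3 replicate 3) to 0.31 with 1 library left out, and Xrn2 in siEXOSC3 0.0023 with the GC and length trend removed. In siDDX1, Aqr was 0.0174 with centring, 0.0413 with the GC and length trend removed and from -0.0452 to 0.0328 with 1 library left out; Rnaseh1 was 0.0101 with quantile normalization, 0.0175 with centring and from -0.13 to 0.10 with 1 library left out; Top1 ran from -0.19 to 0.01 (without siDDX1 replicate 1) with 1 library left out; and Xrn2 was -0.0111 with quantile normalization and from -0.0222 (without scramble replicate 3) to 0.0501 with 1 library left out. Rnaseh2c gave no value at a mean FPKM of at least 5. None of these settings brought those estimates past the threshold. Because depth is unknown, no limit from counts can be set on the lowest genes.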
